A study of Mus musculus with 6 samples.

Results

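The genes described here encode the microtubule proteins of neurons and the proteins of the growth cone: alpha, beta and gamma tubulins, microtubule-associated proteins (MAPs), the doublecortin family, plus-end binding proteins, stathmins, collapsin response mediator proteins (CRMPs), the growth cone membrane proteins Gap43, Basp1 and Marcks, the actin-associated protein Tagln3 and the neurofilaments. They were 44 gene symbols listed by function, and all 44 were found among the 24444 symbols of the deposited table. All 44 also passed the filter on low values, among 14249 genes that did. The samples were telencephalon of C57BL/6J mouse embryos at E12.5, the time at which cortical neurons begin to form, and poly(A) RNA was sequenced. There were 3 libraries of the genotype Arl13b-/- and 3 of the genotype wild-type. Arl13b, the gene named in the genotype, makes a GTPase needed in primary cilia, and the study asked about neuronal cilia and axon tract development. The labels name no further allele, transgene or treatment and do not say whether each library came from a separate embryo, so p-values measure library-to-library spread, part of which may be technical.

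Microtubules are hollow polymers of alpha and beta tubulin. Tubulin genes come in closely related isotypes whose proteins differ mainly in their acidic C-terminal tails, which carry modifications and bind associated proteins. In a young neuron, MAPs and doublecortin stabilise the polymer, stathmins bind free tubulin and promote disassembly, plus-end proteins track the growing tip, and CRMPs and membrane proteins such as Gap43 act where microtubules, actin and membrane meet in the growth cone. Neurofilaments form the other long polymer of the axon and accumulate as it matures.

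The coding ends of 2 pairs of tubulin genes are shown because they bear on how well reads can be told apart between tubulin isotypes. They are the last bases of the coding sequence with its stop codon, 5′ to 3′, from GENCODE vM21 transcripts (build GRCm38), and capitals mark the positions at which the members of a pair differ when their coding sequences are aligned.
Tubb2a: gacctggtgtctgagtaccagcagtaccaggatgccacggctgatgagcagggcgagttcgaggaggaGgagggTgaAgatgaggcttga
Tubb2b: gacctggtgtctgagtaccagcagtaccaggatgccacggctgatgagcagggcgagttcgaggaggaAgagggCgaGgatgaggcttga
Tubb3: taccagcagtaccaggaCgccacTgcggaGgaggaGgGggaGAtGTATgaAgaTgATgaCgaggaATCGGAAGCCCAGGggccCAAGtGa
Tubb5: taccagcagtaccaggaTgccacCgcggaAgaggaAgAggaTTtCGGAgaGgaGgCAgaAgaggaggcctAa
Tubb2a and Tubb2b differed at 3 of these 90 bases and were identical at 96.5% of aligned coding positions. Tuba1a and Tuba1b, not printed here, were identical at 98.3%. Tubb3, the neuron-specific beta tubulin used as a marker of neurons, and Tubb5, the widely expressed one, were identical at 81.2%. Of all 50-base stretches of its transcript, Tuba1a shared 75.5% with transcripts of other genes, Tuba1b 83.1%, Tuba1c 61.0%, Tubb2a 49.6% and Tubb2b 39.3%, whereas Tubb3 and Tubb6 shared none. Tubb4b shared 55.5%, the most with an annotated pseudogene, Stmn1 shared 36.5%, the most with predicted gene Gm11223, and Nefl shared 31.8%, with an annotated Nefm transcript. Tuba4a shared 48.8%, the most with Stk16, Tubg1 14.1%, the most with Tubg2, and Ina 12.8%, the most with Nt5c2. How the authors' counting divided such reads is not given in the sources used here. The values of Tuba1a, Tuba1b, Tuba1c, Tuba4a, Tubb2a, Tubb2b, Tubb4b, Tubg1, Stmn1, Nefl, Nefm and Ina are therefore uncertain as splits between copies or overlapping transcripts.

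Values are normalized counts, obtained by undoing the authors' variance-stabilising transformation, unless a log2 difference is named. Differences are Arl13b-/- minus wild-type on the variance-stabilised scale, which runs close to log2 of the count at these levels. Normalized counts summed to between 27500000 and 36200000 per library, and the estimated depth was between 27600000 and 51700000 reads. Arl13b itself had 492, 532 and 564 normalized counts in Arl13b-/- 1 to 3 and 661, 553 and 560 in wild-type 1 to 3, so its transcript does not check the genotype labels. Arl13b-/- 2 and wild-type 1 stood apart from the other 4 libraries: over the genes tested, the Pearson correlation with those 4 was between 0.702 and 0.722 for Arl13b-/- 2 and between 0.880 and 0.898 for wild-type 1, against 0.985 to 0.995 among the 4. Counts and medians over genes are therefore given for all 6 libraries and for Arl13b-/- 1 and 3 against wild-type 2 and 3. The differences of single genes are given over those 4 libraries, and over 6 for some, since the adjusted p of every member over 6 libraries was at least 0.990. Among the 4 libraries, Ddx3y, on the Y chromosome, had 0 and 1.24 normalized counts in Arl13b-/- 1 and 3 and 1093 and 1258 in wild-type 2 and 3, so sex and genotype cannot be told apart there. In Arl13b-/- 2 and wild-type 1 it had 0 and 0.54. Xist, on the X chromosome, had 16292, 244 and 19017 in Arl13b-/- 1 to 3, against 15101, 26.5 and 213 in wild-type 1 to 3. Arl13b-/- 2 was thus low for both genes, and the reason was not tested.

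The neuronal microtubule genes varied far more with the library than with the genotype label. Together they held 3.07%, 6.93% and 3.0% of all normalized counts in Arl13b-/- 1 to 3, and 4.5%, 3.01% and 2.97% in wild-type 1 to 3. Arl13b-/- 1 and 3 and wild-type 2 and 3 lay next to each other, wild-type 1 above them and Arl13b-/- 2 highest. The median distance of the 44 members from the average of wild-type 2 and 3 was 0.082, 1.52 and 0.079 log2 units in Arl13b-/- 1 to 3 and 0.59 in wild-type 1. In Arl13b-/- 2, 26 members (59.1%) were at least 1 log2 unit above that mean, against 21.0% of all genes tested, and 1 (2.27%) was at least 1 below, against 25.5%. In wild-type 1, 12 (27.3%) were at least 1 above, against 12.2%, and 2 (4.55%) at least 1 below, against 6.55%. Among the other 4 libraries, the whole range of a member had a median of 0.15 log2 units and ran from 0.038 for Tubb5 to 0.85 for Tubb6. The median range over all genes tested was 0.18.

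**Figure D1:**
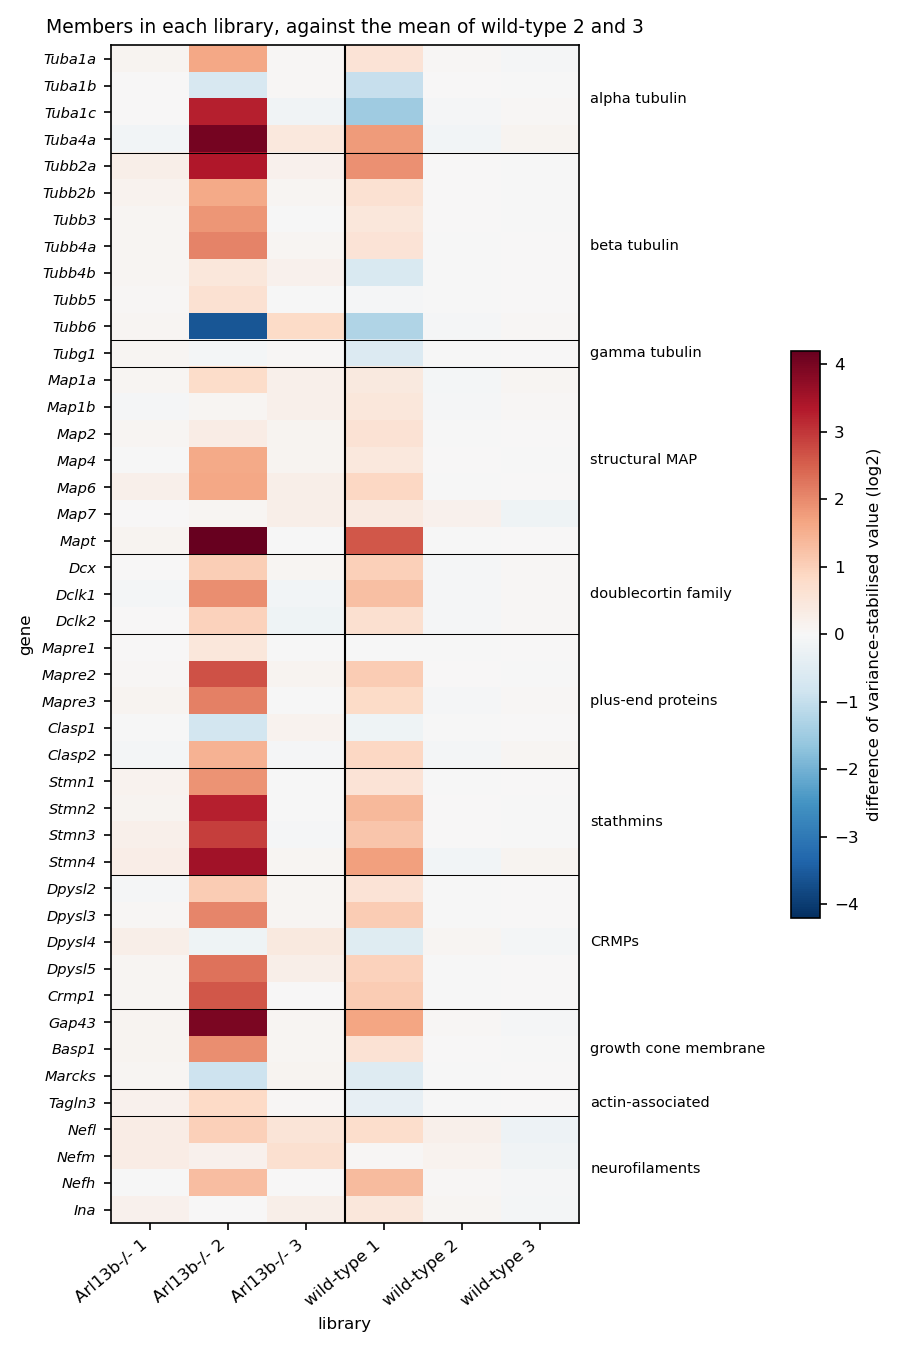
Difference of the variance-stabilised value (log2, colour) of each of the 44 members in each library from the mean of wild-type 2 and 3, with genes grouped by role. Red columns stand out in Arl13b-/- 2 (median 1.52) and, paler, in wild-type 1 (median 0.59), while Arl13b-/- 1 and 3 are nearly white.

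Cell-type markers moved with the same 2 libraries. The 14 postmitotic neuron markers summed to 84640, 397648 and 87070 normalized counts in Arl13b-/- 1 to 3 and to 202591, 79623 and 82610 in wild-type 1 to 3, and none was at 0 in any library. The 11 radial glia markers summed to 129540, 3896 and 146662 in Arl13b-/- 1 to 3 and to 47631, 116786 and 119768 in wild-type 1 to 3. The 12 cell cycle genes summed to 84845, 2641 and 93597 in Arl13b-/- 1 to 3 and to 19800, 79806 and 85725 in wild-type 1 to 3. By these sums neuron markers were highest, and progenitor and cycling markers lowest, in Arl13b-/- 2, with wild-type 1 next. Single radial glia markers differed in wild-type 1, where 9 of 11 lay below the other 4 libraries and 2 above them. Over 4 libraries the median differences of the lists were 0.12 for radial glia, 0.096 for cell cycle and 0.12 for neuron markers, against 0.023 over all genes. With an unadjusted p under 0.05 (limma) there were 5 radial glia genes higher in Arl13b-/- and 1 lower, 3 cell cycle genes higher and 0 lower, and 4 neuron genes higher and 1 lower. Of all genes, 8.08% were higher and 6.33% lower at that p. Further marker lists also differed by genotype label in the 4 libraries, and 0 genes of any marker list passed in limma after adjustment. All 11 surface ectoderm markers had 4-library differences below 0 (median −1.91), 10 with an unadjusted p under 0.05. They summed to 837, 214 and 299 in Arl13b-/- 1 to 3, with 3 listed at 0 in Arl13b-/- 2 and 1 in Arl13b-/- 3, and to 15686, 4409 and 1952 in wild-type 1 to 3. All 10 mesenchyme markers were also below 0 (median −0.65), 5 with an unadjusted p under 0.05, and they summed to 33001, 1776 and 39992 in Arl13b-/- 1 to 3 and to 32181, 83604 and 44750 in wild-type 1 to 3. All 6 blood markers were above 0 (median 1.32), each with an unadjusted p under 0.05, whereas over 6 libraries 5 of 6 were below 0. Of 6 endothelium and 6 microglia markers, 5 each were above 0 over 4 libraries (medians 0.27 and 0.25). The part of cell composition or of other tissue in the members' values was not tested, and in bulk tissue fewer cells of a type and less RNA per cell cannot be told apart.

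Alpha tubulins, one side of each tubulin dimer, did not pass a test in either comparison, and their isotypes went different ways in the libraries that stood apart. Tuba1a, the main alpha tubulin of young neurons, had 119891, 342828 and 114948 normalized counts in Arl13b-/- 1 to 3, against 166630, 114683 and 108919 in wild-type 1 to 3. The groups overlapped, because wild-type 1 exceeded Arl13b-/- 1 and 3. The difference was 0.39 ± 0.51 (SE) log2 units over 6 libraries and 0.071 ± 0.070 over 4 (limma adjusted p = 0.990 and 0.704). Tuba1b, a widely expressed isotype, had 6262, 3824 and 6401 in Arl13b-/- 1 to 3, against 3092, 6206 and 6159 in wild-type 1 to 3, so it was lowest in the libraries in which Tuba1a was highest. Tuba1c, another broadly expressed isotype, had 1098, 11092 and 988 in Arl13b-/- 1 to 3, against 349, 1065 and 1121 in wild-type 1 to 3. It was the one member at least 1 log2 unit above the mean of wild-type 2 and 3 in Arl13b-/- 2 and at least 1 below it in wild-type 1. Tuba4a, an alpha tubulin made without the terminal tyrosine, had 142, 3554 and 232 in Arl13b-/- 1 to 3, against 690, 138 and 177 in wild-type 1 to 3.

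Beta tubulins, the other side of the dimer, apart from Tubb6, were steady in the 4 libraries and spread widely over 6. Tubb3 had 56153, 190583 and 52546 normalized counts in Arl13b-/- 1 to 3, against 73448, 53245 and 52868 in wild-type 1 to 3. Without Arl13b-/- 2 and wild-type 1, all values lay within 0.096 log2 units, and the difference was 0.034 ± 0.061 (SE; 95% interval −0.12 to 0.19). Tubb5 had 129978, 198809 and 126677 in Arl13b-/- 1 to 3, against 123616, 126581 and 127148 in wild-type 1 to 3. Its value in wild-type 1 was therefore close to those of the other wild-type libraries, unlike Tubb3. Tubb2a, an isotype enriched in neurons, had 7762, 68018 and 7345 in Arl13b-/- 1 to 3, against 24760, 6628 and 6399 in wild-type 1 to 3. Both remaining Arl13b-/- libraries exceeded both remaining wild-type ones, by 0.21 ± 0.051 log2 units, which did not pass over all genes (unadjusted p = 0.00725, limma adjusted p = 0.183). Tubb4b, a widely expressed isotype, had 9151, 12128 and 9683 in Arl13b-/- 1 to 3, against 5567, 8567 and 8669 in wild-type 1 to 3. It was one of 3 members whose groups did not overlap over all 6 libraries (difference 0.46 ± 0.25, adjusted p = 0.990 in limma; the two-sided permutation test, which is exact, gave p = 0.1, the smallest that 3 against 3 can give).

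Tubb2b and Tubb4a, both prominent in brain, had higher values in Arl13b-/- 2 (207651 and 32304) and wild-type 1 (107342 and 11385) than in the other 4 libraries. Tubb6, a beta tubulin of non-neural cells, had 1354, 53.8 and 2266 in Arl13b-/- 1 to 3, against 497, 1223 and 1338 in wild-type 1 to 3. Arl13b-/- 3 was the highest library and Arl13b-/- 2 the lowest. The 4-library difference of Tubb6 was 0.435 ± 0.22 (limma adjusted p = 0.453). It was 0.08 without Arl13b-/- 3 and 0.79 without Arl13b-/- 1, each of which leaves a single Arl13b-/- library. Blood markers summed to 102521, 64 and 284157 in Arl13b-/- 1 to 3 and to 7964, 56132 and 72522 in wild-type 1 to 3. They were also highest in Arl13b-/- 3 and lowest in Arl13b-/- 2, where 4 of 6 were listed at 0. The same libraries were highest and lowest for the summed radial glia (146662 and 3896), cell cycle (93597 and 2641) and endothelium markers (7766 and 482). The part of any of these cell types in the Tubb6 values was not tested. The gamma tubulin gene Tubg1, needed to start new microtubules, had 2539, 2231 and 2481 in Arl13b-/- 1 to 3, against 1568, 2387 and 2390 in wild-type 1 to 3, and its 4-library difference was 0.070 ± 0.047 (limma adjusted p = 0.554).

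**Figure D2:**
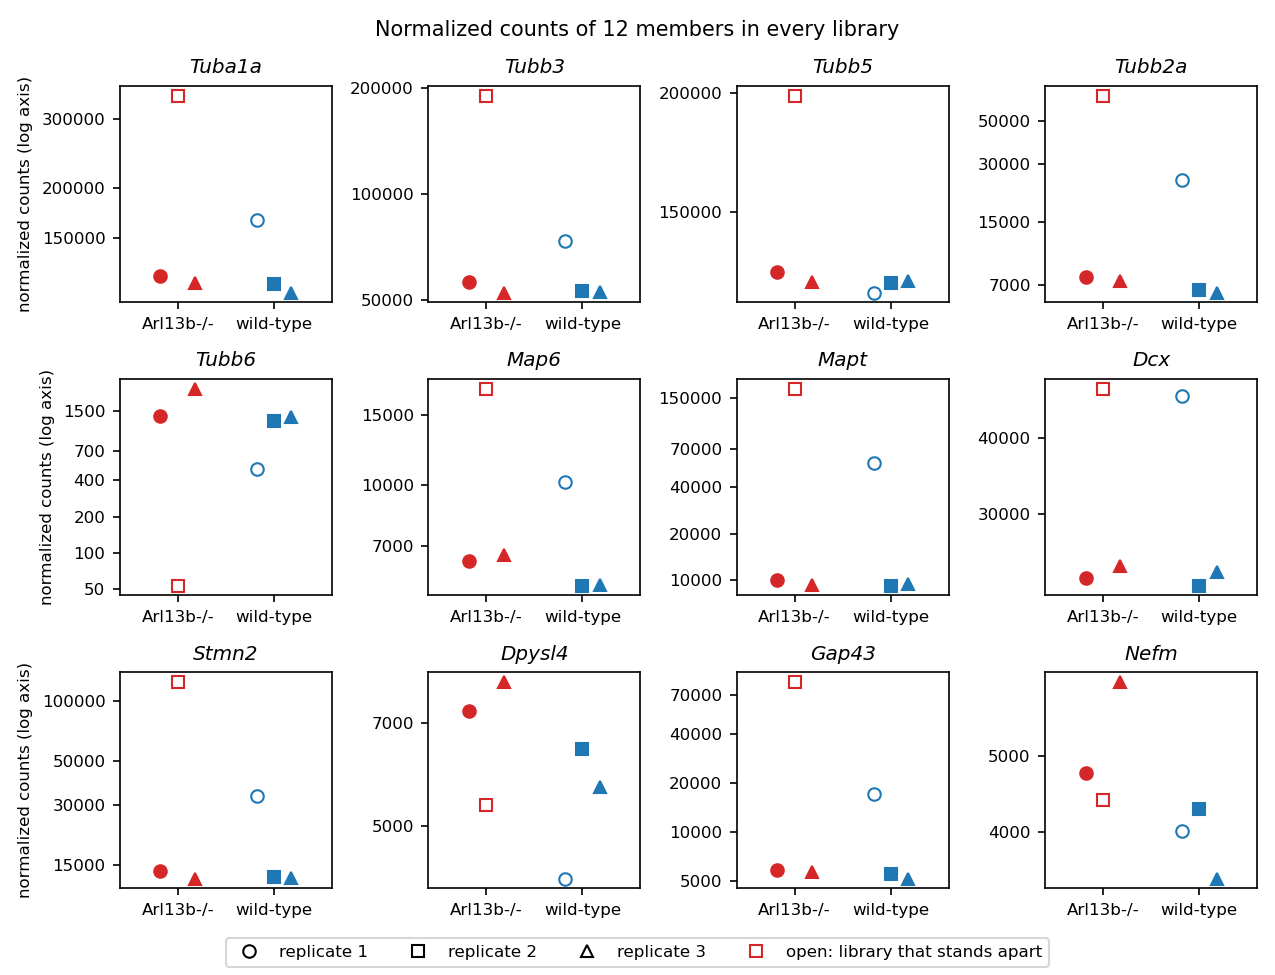
Normalized counts (log axis, different in each panel) of 12 members in the 3 Arl13b-/- libraries (red, left) and the 3 wild-type libraries (blue, right), with 1 symbol per library and open symbols for Arl13b-/- 2 and wild-type 1. Open symbols lie far above the filled ones for most genes, far below them for Tubb6 and below them for Dpysl4. Filled red symbols lie above filled blue ones for Tuba1a, Tubb2a, Tubb6, Map6, Dpysl4, Gap43 and Nefm, by little for Tuba1a.

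Structural MAPs showed the largest library effect, in Mapt, and the smallest unadjusted p of the 4-library comparison, in Map6. Mapt encodes tau, the axonal MAP, and had 10015, 171604 and 9243 normalized counts in Arl13b-/- 1 to 3, against 56844, 9226 and 9399 in wild-type 1 to 3. It lay 4.19 log2 units above the mean of wild-type 2 and 3 in Arl13b-/- 2 and 2.6 above it in wild-type 1, while the 4-library difference was 0.047 ± 0.056 (SE; 95% interval −0.092 to 0.19). Map6, which protects microtubules from cold and drugs, had 6431, 17438 and 6656 in Arl13b-/- 1 to 3, against 10154, 5570 and 5592 in wild-type 1 to 3. Among the 4 libraries the groups were apart, with a difference of 0.23 ± 0.045 and a count ratio of 1.17 (unadjusted p = 0.00300, limma adjusted p = 0.133), and over 6 libraries they overlapped. Map2, the dendritic MAP, had 30620, 35818 and 31362 in Arl13b-/- 1 to 3, against 44884, 28618 and 29694 in wild-type 1 to 3, so its highest value was in wild-type 1 and not in Arl13b-/- 2.

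Map1a, which replaces Map1b as neurons mature, had 5028, 8167 and 5497 in Arl13b-/- 1 to 3, against 6304, 4437 and 5030 in wild-type 1 to 3. Map1b, prominent in growing axons, lay within the range of the 4 libraries in Arl13b-/- 2 (73779) and above it in wild-type 1 (95874). Map4, a MAP of many cell types, had 27520 in Arl13b-/- 2 and 12367 in wild-type 1, and between 9063 and 9947 in the others. Map7, which recruits a kinesin motor, had 220, 229 and 267 in Arl13b-/- 1 to 3, against 296, 251 and 181 in wild-type 1 to 3.

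The doublecortin family was the one role group in which most members had 4-library differences under 0. Dcx, the microtubule stabiliser of migrating neurons, had 23619, 48082 and 24659 in Arl13b-/- 1 to 3, against 46759, 22917 and 24138 in wild-type 1 to 3. Arl13b-/- 2 and wild-type 1 were alike here, and the difference was 0.038 ± 0.42 (SE) over 6 libraries and 0.037 ± 0.055 over 4. Dclk1, a kinase with doublecortin domains, had 8526, 34945 and 8350 in Arl13b-/- 1 to 3, against 21931, 8741 and 9291 in wild-type 1 to 3. It was the one member whose 4-library groups were apart with the Arl13b-/- libraries lower (−0.094 ± 0.051, limma adjusted p = 0.472). Dclk2, its close relative, had 3834, 7357 and 3316 in Arl13b-/- 1 to 3, against 5958, 3581 and 3924 in wild-type 1 to 3.

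Plus-end proteins differed in direction and size of change in Arl13b-/- 2 and wild-type 1. Mapre1, the widely expressed end-binding protein, stayed between 9787 and 10096 in 5 libraries and had 13912 in Arl13b-/- 2. Mapre2, a second end-binding protein, had 6560, 40926 and 6913 in Arl13b-/- 1 to 3, against 13373, 6485 and 6308 in wild-type 1 to 3. Mapre3, the end-binding protein enriched in brain, had 6643 in Arl13b-/- 2, 2673 in wild-type 1 and between 1449 and 1600 in the rest. Clasp1 and Clasp2 rescue shrinking microtubules, and they went opposite ways. Clasp2 had 4655, 13721 and 4759 in Arl13b-/- 1 to 3, against 9021, 4675 and 5231 in wild-type 1 to 3, whereas Clasp1 had its lowest values in Arl13b-/- 2 (5778) and wild-type 1 (8659). No plus-end member had an unadjusted p under 0.05 in either comparison.

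All 4 stathmins, which sequester tubulin, were highest in Arl13b-/- 2 and next highest in wild-type 1. Stmn2, a stathmin of growing axons, had 14020, 124879 and 12869 in Arl13b-/- 1 to 3, against 33432, 13096 and 12945 in wild-type 1 to 3. Stmn4 had 3264, 31884 and 2878 in Arl13b-/- 1 to 3, against 9073, 2478 and 2932 in wild-type 1 to 3, and Stmn1, the cytosolic stathmin found also in progenitors, had 19294, 64283 and 17414, against 25974, 17397 and 17613. For each of them the 4-library groups overlapped. The 4-library differences were between 0.045 for Stmn2 and 0.18 for Stmn4 (limma adjusted p of at least 0.482).

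Among CRMPs, which link semaphorin signals to tubulin and actin, Dpysl4 departed from the rest. Dpysl4 had 7258, 5360 and 7989 in Arl13b-/- 1 to 3, against 4215, 6430 and 5679 in wild-type 1 to 3, so it was lower in Arl13b-/- 2 and wild-type 1 than in the other library pairs of their own genotype. Its 4-library difference was 0.33 ± 0.080 (SE), a count ratio of 1.26 (unadjusted p = 0.00740, limma adjusted p = 0.183). Dpysl5 had 17364, 79913 and 19383 in Arl13b-/- 1 to 3, against 31765, 16213 and 16379 in wild-type 1 to 3, with a 4-library difference of 0.17 ± 0.066 (limma adjusted p = 0.334). Crmp1, Dpysl2 and Dpysl3 were all highest in Arl13b-/- 2 and next in wild-type 1, and their 4-library differences were 0.047, 0.018 and 0.066.

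The growth cone membrane proteins Gap43, Basp1 and Marcks bind calmodulin and acidic membrane lipids. Gap43 had 5846, 84034 and 5707 in Arl13b-/- 1 to 3, against 17168, 5575 and 5206 in wild-type 1 to 3, and Basp1 had 32341, 117079 and 31748, against 45485, 30372 and 29546. Marcks, which progenitors also express, was instead lowest in the libraries that stood apart, with 23596 in Arl13b-/- 2 and 29126 in wild-type 1, against 42602 to 46232 in the others. In the 4 libraries the groups were apart for all of these genes, with differences of 0.099 ± 0.053, 0.097 ± 0.051 and 0.097 ± 0.053 (SE; limma adjusted p of at least 0.458). The 4-library groups were also apart for 47.5% of all genes tested, 29.3% with Arl13b-/- higher. Tagln3, a calponin-related protein of neurons, had 7231, 11586 and 6624 in Arl13b-/- 1 to 3, against 5041, 6323 and 6532 in wild-type 1 to 3. Its groups did not overlap over all 6 libraries either, with a difference of 0.47 ± 0.27 (adjusted p = 0.990 in limma; p = 0.1 in the exact permutation test).

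Of the 4 neurofilament genes, 3 had an unadjusted p under 0.05 (limma) over 4 libraries, all higher in Arl13b-/-, and 0 passed after adjustment. Of all genes tested, 14.4% had such a p, 8.08% higher and 6.33% lower. Nefm, the medium subunit, had 4765, 4395 and 6216 normalized counts in Arl13b-/- 1 to 3, against 4019, 4280 and 3492 in wild-type 1 to 3, and the groups did not overlap over all 6 libraries. Its difference was 0.49 ± 0.15 (SE) over 4 libraries, a count ratio of 1.41 (unadjusted p = 0.02, limma adjusted p = 0.257), and 0.37 ± 0.20 over 6 (limma adjusted p = 0.990). Nefl, the light subunit, had 3677, 5988 and 4361 in Arl13b-/- 1 to 3, against 5009, 3472 and 2527 in wild-type 1 to 3. Ina, the internexin that joins neurofilaments early, had 13889, 12427 and 14560 in Arl13b-/- 1 to 3, against 17296, 13099 and 11644 in wild-type 1 to 3. The 4-library differences of Nefl and Ina were 0.43 ± 0.16 and 0.20 ± 0.070 (limma adjusted p = 0.323 and 0.293). Nefh, the heavy subunit of mature axons, had 64.9, 244 and 69.1 in Arl13b-/- 1 to 3, against 257, 70.1 and 63.8 in wild-type 1 to 3, and a 4-library difference of 0.00047 ± 0.099. Within the wild-type group, Nefl and Nefm were lower in wild-type 3 than in wild-type 2, and without wild-type 3 the differences of Nefl, Nefm and Ina were 0.20, 0.34 and 0.12. Leaving out Arl13b-/- 1 or Arl13b-/- 3 leaves a single Arl13b-/- library. Without Arl13b-/- 1 the differences of Nefl, Nefm and Ina were 0.55, 0.68 and 0.24, and without Arl13b-/- 3 they were 0.31, 0.30 and 0.17.

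No member passed in limma over all genes tested. Over 6 libraries 0 of 44 passed an adjusted p of 0.05, where 0.00% of all genes did, and 0 had an unadjusted p under 0.05, where 1.14% did (0.112% higher and 1.03% lower in Arl13b-/-). The groups of 3 did not overlap for 3 members (6.82%: Tubb4b, Tagln3 and Nefm, higher in Arl13b-/-), against 8.26% of all genes (4.67% higher and 3.59% lower). In all, 36 members (81.8%) were above 0, against 50.2% of all genes. The median difference was 0.38, against 0.0026 over all genes, and it was −0.12 without Arl13b-/- 2 and 0.58 without wild-type 1. Over 4 libraries 0 of 44 passed, where 0.253% of all genes did, and 8 (18.2%) had an unadjusted p under 0.05, all higher in Arl13b-/-, where 14.4% of all genes did (8.08% higher and 6.33% lower): Map6, Tubb2a, Dpysl4, Nefm, Ina, Nefl, Dpysl5 and Tubb4b. The groups did not overlap for 23 members (52.3%), 22 higher and 1 lower, against 47.5% of all genes (29.3% higher and 18.1% lower).

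The 4-library intervals hold only for the spread among libraries kept after Arl13b-/- 2 and wild-type 1 stood apart, where sex and genotype cannot be told apart. They do not bound a difference by genotype. The median SE of the members was 0.060 over 4 libraries and 0.50 over 6. For all 44 members the 95% interval, not adjusted for the number of genes, lay within 1 log2 unit of 0, as it did for 96.3% of all genes, and for 38 it lay within 0.5. The median difference was 0.076, against 0.023 over all genes, and 39 of 44 members (88.6%) were above 0, against 58.8% of all genes. That direction depended on scaling: after quantile normalization the median was 0.0068 and 24 members were above 0. Over 6 libraries 13 of 44 intervals lay within 1 log2 unit of 0, against 42.8% of all genes.

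**Figure D3:**
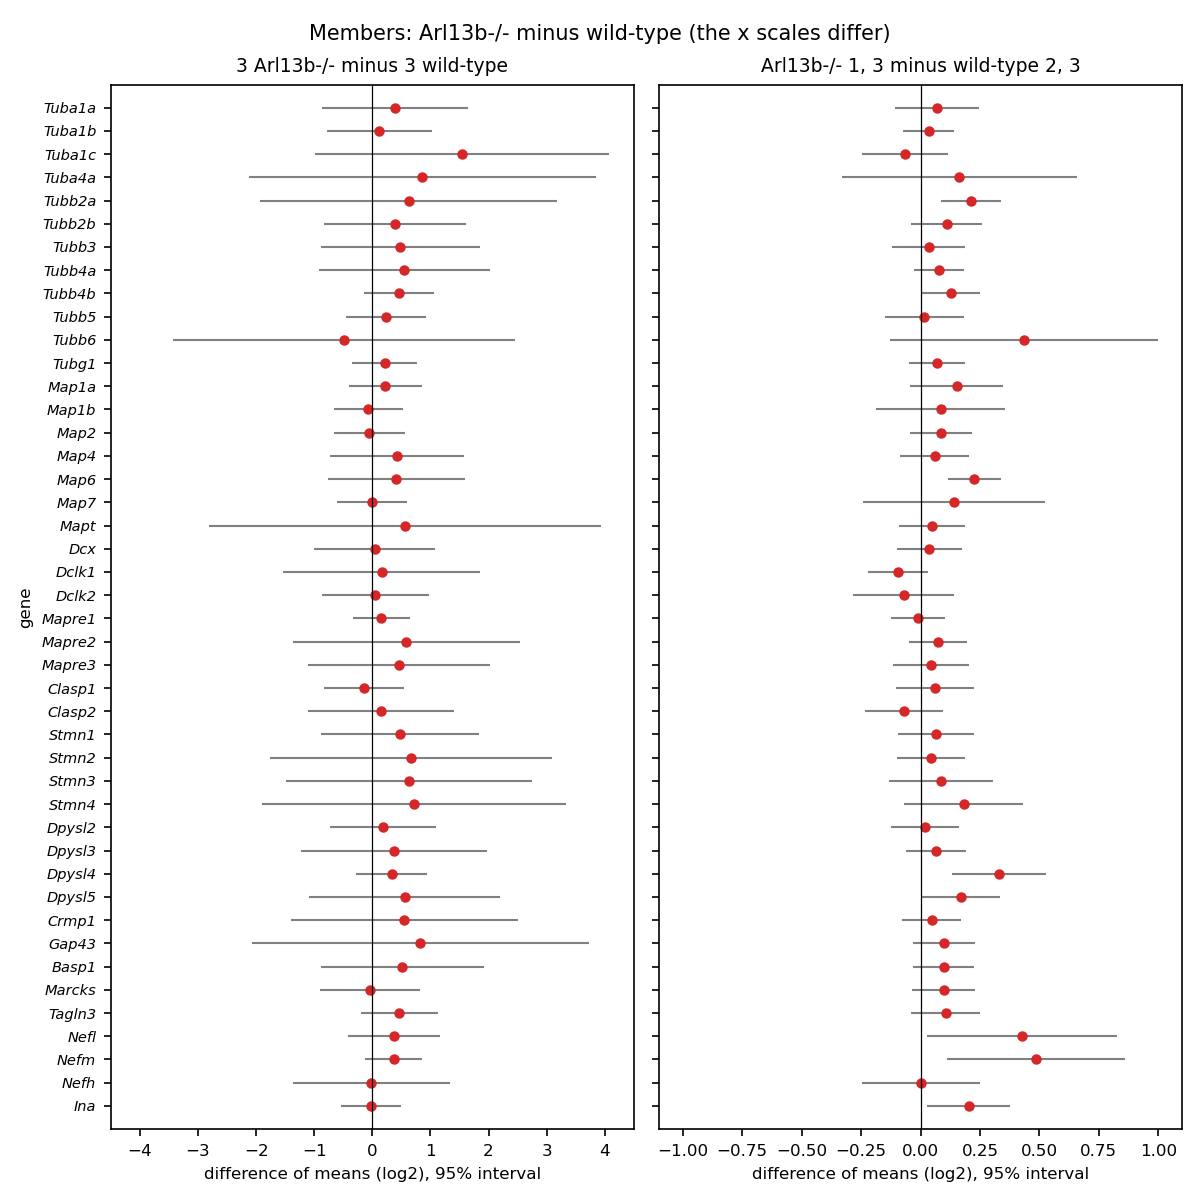
Difference of mean variance-stabilised values (log2, Arl13b-/- minus wild-type) of each member with its 95% interval from limma, over all 6 libraries (left) and over Arl13b-/- 1 and 3 against wild-type 2 and 3 (right), with different x scales. Intervals on the left reach from −3.43 to 4.07, and those on the right stay between −0.33 and 0.997 with the median at 0.076.

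Ratios of related members within a library do not depend on how the library was scaled, and 8 pairs were compared over 6 libraries. The log2 ratio of Tubb3 to Tubb5 was −1.21, −0.061 and −1.27 in Arl13b-/- 1 to 3, against −0.75, −1.25 and −1.26 in wild-type 1 to 3. The log2 ratio of Tuba1a to Tuba1b was 4.24, 6.46 and 4.15 in Arl13b-/- 1 to 3, against 5.72, 4.19 and 4.13 in wild-type 1 to 3. For Tubb2a to Tubb2b it was −3.27, −1.61 and −3.30 in Arl13b-/- 1 to 3, against −2.11, −3.36 and −3.40 in wild-type 1 to 3. In each pair Arl13b-/- 2 and wild-type 1 had the highest ratios, and the other 4 libraries lay close together. Stmn2 to Stmn1 and Mapre3 to Mapre1 showed the same order of libraries, and Dpysl2 to Dpysl3 was lowest in those libraries. The difference of means ran from −0.19 for Dpysl2 to Dpysl3 to 0.39 for Nefl to Ina, with exact two-sided permutation p between 0.2 and 0.9 (0.8 or above after Benjamini-Hochberg adjustment over 8 pairs), where 3 against 3 cannot go below 0.1. Over the 4 libraries the differences were between −0.048 and 0.22.

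**Figure D4:**
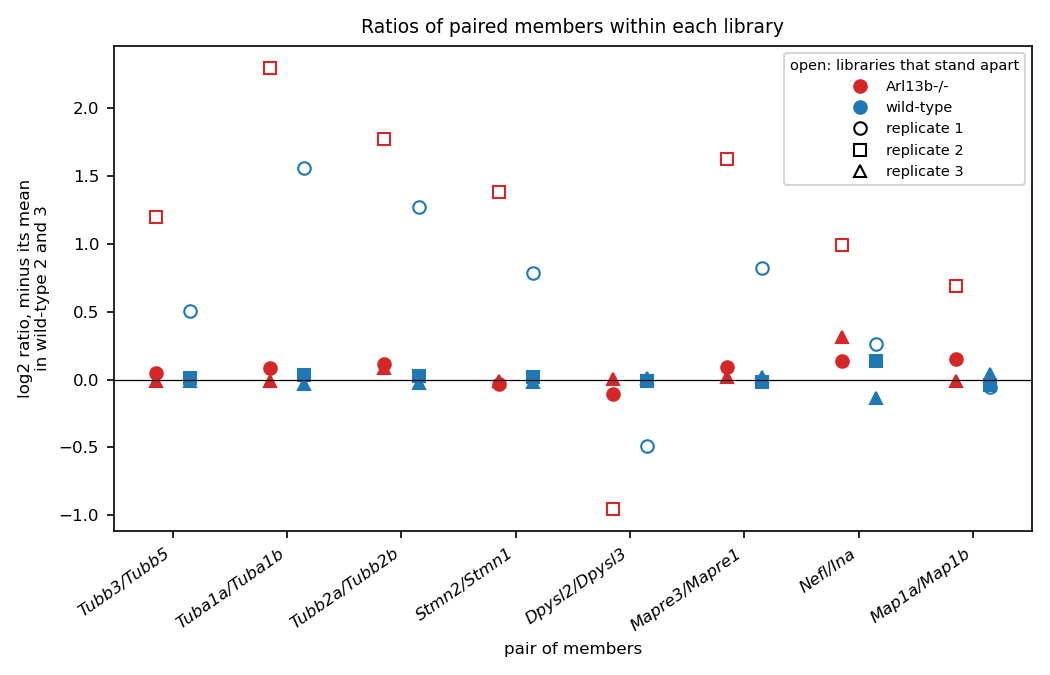
Log2 ratio of the members of 8 pairs within each library, as the distance from its mean in wild-type 2 and 3, for Arl13b-/- (red, left of each pair) and wild-type (blue, right), with open symbols for Arl13b-/- 2 and wild-type 1. The open symbols lie away from 0 in most pairs and the filled ones near it, as for Tuba1a over Tuba1b, where Arl13b-/- 2 is at 6.46 and Arl13b-/- 1 at 4.24 before centring.

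Other genes of the microtubule and growth cone machinery were counted in 7 lists with 108 genes tested, of which 0 passed in either comparison (limma). In Arl13b-/- 2, 13 of 20 genes for nucleation and the gamma-tubulin ring complex (65.0%) were at least 1 log2 unit below the mean of wild-type 2 and 3, against 25.5% of all genes, and 0 were at least 1 above, against 21.0%. Tpx2, a spindle assembly factor, had 6970, 152 and 7447 in Arl13b-/- 1 to 3, against 1566, 6462 and 6783 in wild-type 1 to 3. The 6-library medians were −0.265 for nucleation genes, 15 of which were below 0, 0.10 for folding cofactors, 0.13 for tubulin modifying enzymes, 0.078 for severing and minus-end proteins, 0.16 for other MAPs and plus-end proteins, 0.33 for actin regulators and 0.28 for other tubulins, against 0.0026 over all genes. The 4-library medians were 0.020 for nucleation genes, 0.094 for 11 folding cofactors, −0.0048 for 18 tubulin modifying enzymes, 0.093 for 10 severing and minus-end proteins, 0.048 for 27 other MAPs and plus-end proteins, 0.051 for 18 actin regulators and 0.076 for 4 other tubulins, against 0.023 over all genes. Over 4 libraries an unadjusted p under 0.05 was found for 9 of 108 genes, all higher in Arl13b-/- (8.33%), against 8.08% of all genes higher and 6.33% lower, so the share of higher genes was near the background. The 9 included the severing enzyme gene Fign (0.59 ± 0.10, SE, limma adjusted p = 0.104), Mid1, a microtubule-bound ubiquitin ligase (0.37 ± 0.091, adjusted p = 0.187), Tbcel, which destabilises tubulin (0.27 ± 0.067, adjusted p = 0.192), and the chaperonin subunit Cct2 (0.14 ± 0.044, adjusted p = 0.265). Of tubulin modifying enzymes, 9 of 18 lay above and 9 below 0, with Ttl, the tubulin tyrosine ligase, at −0.145 ± 0.070 and Vash2, a detyrosinating enzyme, at −0.13 ± 0.055 (adjusted p = 0.427 and 0.370).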

How the data were processed

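Per the labels' protocols, a commercial kit was used to extract RNA from E12.5 telencephalon, and 3 Arl13b-/- and 3 wild-type libraries were grouped by their titles. The authors deposited values on a log2-like scale, from a variance-stabilising transformation, between 5.13 and 18.39 for 24444 symbols. The submitters' processing notes name build mm9 and the tools DESeq2, DESeq 1.16.1, Salmon 0.9.1, STAR 2.6.0 and CASAVA without saying what each did. What annotation or filter was applied is not given in the sources used here.

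The lowest value, shared by all libraries, is that of a count of 0 and fixes the constant of the parametric transformation, which was inverted to normalized counts. The lowest inverted values lay at multiples of a step taken as 1 read, which gave the depth. Of inverted values below 30 reads, 70.2% to 79.5% per library came within 0.05 of a whole number, so no count test was run, and depth limits precision only at low counts.

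Genes with a mean at least 1 above the lowest value were tested with limma 3.58.1 in R 4.3.3, with a mean-variance trend and two-sided Benjamini-Hochberg adjustment over 14249 genes at 0.05. The 4-library fit used the same genes. With 2 libraries per group its spread is borrowed largely across genes. The code was tested on simulated data. Pairs of members were compared by exact permutation. Shared sequence was counted as 50-base stretches on either strand of GENCODE vM21 transcripts. For each member the transcript with the longest complete coding sequence was taken, from those with a consensus coding sequence (CCDS) tag where any had it. Coordinates are not given, as the reference is of another build.

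Members, lists, the rule for named genes and the 4-library comparison were chosen with earlier results of these data known. The rule gave values for the pair of members of each role with the smallest 4-library p and for 10 fixed members. The other members with values, Tubb6 among them, and Ddx3y and Xist fall outside the rule and were chosen after their values were seen. Alternatives were quantile normalization, centring, filters that were stricter or left out, array weights, robust moderation, a fit without the trend, a replicate block, inverted counts with 1 added, and leaving out each library. Figures were drawn with matplotlib 3.10.9.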

Additional observations from a re-analysis of the deposited data

How the results depend on the processing

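The count of members past the threshold was 0 over 6 libraries under each of the 16 alternatives. Over 4 libraries it was 0 under each of 11 alternatives but one: leaving out each library gave 0 to 2 higher members, the 2 being Nefm and Tubb6 without Arl13b-/- 1, where 725 genes passed over the whole table. Genes called over the whole table numbered 36 over 4 libraries and between 1 (no filter) and 98 (robust moderation) under the alternatives that keep all 4, with 59 after quantile normalization, 7 without the trend and 24 with the stricter filter. They numbered 0 over 6 libraries, 214 with array weights and 3 with no filter. The median difference of members over 4 libraries, 0.076, moved to 0.061 when libraries were centred on their medians and to 0.0068 after quantile normalization, and leaving out each library gave 0.063 to 0.082. Over 6 libraries it was 0.38, 0.17 after quantile normalization, 0.096 with array weights and −0.12 to 0.58 with each library left out. Single members changed sign without a call in 31 of 44 cases over 6 libraries without Arl13b-/- 2. Leaving out each library reversed ratios, with ranges of −0.15 to 0.45 for Tubb3 over Tubb5, −0.48 to 0.79 for Tuba1a over Tuba1b, −0.32 to 0.66 for Tubb2a over Tubb2b, −0.28 to 0.45 for Stmn2 over Stmn1, −0.37 to 0.11 for Dpysl2 over Dpysl3 and −0.22 to 0.59 for Mapre3 over Mapre1. The deviations of same-numbered libraries from their group means correlated at −0.71, −0.71 and 0.62 over genes. Those of Arl13b-/- 2 and wild-type 1 correlated at 0.713, and those of Arl13b-/- 1 and wild-type 2 at 0.701. These values follow which library of each group stood apart, so they cannot show whether the replicate numbers pair the libraries. With the replicate number as a block, the median over 6 libraries was 0.38, 0 members passed and the ratio of Tubb3 to Tubb5 differed by 0.24. The 4-library fits that leave out 1 library set 1 against 2, and the lone library is assumed to vary like the others. The cause of these changes was not tested. Values of members with low counts, such as Nefh and Tuba4a, are limited by depth.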
